A study of Mus musculus with 6 samples.

Results

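Toll-like receptors (TLRs) and NOD-like receptors (NLRs), with the proteins that carry their signals, were examined in bone marrow (BM) MSCs as 56 genes of the 56980 in the deposited count table. The members were every gene named *Tlr* with a number (12 genes), every gene named *Nlrp* with a number (19 genes) and 25 further genes listed by name. The rule uses names and no measured values, although earlier results of these data were known when it was written. The cells came from female mice that underwent bilateral ovariectomy (OVX) at 8 weeks of age, had their gut microbiota depleted with antibiotics and were then gavaged for 8 weeks with fecal suspension. Fecal microbiota transplantation (FMT) came from sedentary OVX mice in the TranspCtrl group and from OVX mice trained on a treadmill in the TranspExer group, with 3 samples in each. Recipients of both groups thus shared the OVX, the antibiotics and the gavage. Flushed marrow was cultured for 7 days with repeated washes and no sorting step was described, so the cultures could hold other adherent marrow cells. The labels do not say whether the 3 samples of a group came from separate mice, and the p-values then measure only the spread between these samples, which may be technical.

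TLRs and NLRs recognise molecules of microbes and of damaged cells. TLRs sit in the plasma membrane or in endosomes and signal through the adaptors MyD88 and TRIF to the IRAK kinases, NF-kB and interferon regulatory factors. NOD1 and NOD2 sense fragments of bacterial peptidoglycan in the cytosol, and other NLRs assemble inflammasomes, in which caspase-1 is activated, IL-1β is matured and gasdermin D is cleaved. In marrow these genes are known chiefly from macrophages, neutrophils and dendritic cells, although stromal cells also carry some TLRs and NOD1.

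Total counts lay between 17647638 and 21319166 per sample, and 15190 genes passed the filter on low counts. Levels are given as CPM (the usual scaling of read counts to sequencing depth, with TMM-adjusted library sizes). For reference, 3 counts equalled 0.139 to 0.174 CPM (counting error only), which was not the limit of the filter. One library stood apart from its group. By a chi-square statistic per gene, TranspCtrl 1 differed from the other TranspCtrl samples by 54.7 and 60.2 on average, whereas TranspCtrl 2 and 3 differed by 3.81 and the TranspExer samples among themselves by 4.52 to 7.99. Values without it are therefore given where it changed the call of a member or moved a described value by much.

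The promoters of the 5 receptor genes whose call at an adjusted p of 0.05 held under all 12 alternative analyses of it are shown first. Each run is the 250 bases before a RefSeq start of the gene (GRCm38.p6), 5′ to 3′ on the strand of the gene. Capitals mark matches to the SP1 motif GGGCGG, the PU.1 motif GAGGAAGT or the NF-kB motif, searched on both strands.
*Tlr2*, chr3:83841609-83841858, minus strand: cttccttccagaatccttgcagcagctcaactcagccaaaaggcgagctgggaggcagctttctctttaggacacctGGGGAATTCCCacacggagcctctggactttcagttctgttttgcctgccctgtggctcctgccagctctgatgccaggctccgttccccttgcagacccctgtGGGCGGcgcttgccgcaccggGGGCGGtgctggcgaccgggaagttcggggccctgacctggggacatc
*Tlr5*, chr1:182954538-182954787, plus strand: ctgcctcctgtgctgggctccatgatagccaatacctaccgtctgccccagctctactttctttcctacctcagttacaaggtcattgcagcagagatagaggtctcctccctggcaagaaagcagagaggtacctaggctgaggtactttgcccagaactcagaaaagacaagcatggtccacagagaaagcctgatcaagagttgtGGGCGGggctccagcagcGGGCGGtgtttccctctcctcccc
*Tlr1*, chr5:64933559-64933808, minus strand: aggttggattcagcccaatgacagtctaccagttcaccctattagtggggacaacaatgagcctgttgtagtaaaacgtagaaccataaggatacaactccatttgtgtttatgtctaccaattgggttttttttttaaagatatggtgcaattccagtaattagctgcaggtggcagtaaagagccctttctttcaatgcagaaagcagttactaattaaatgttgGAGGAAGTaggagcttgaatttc
*Tlr13*, chrX:106143025-106143274, plus strand: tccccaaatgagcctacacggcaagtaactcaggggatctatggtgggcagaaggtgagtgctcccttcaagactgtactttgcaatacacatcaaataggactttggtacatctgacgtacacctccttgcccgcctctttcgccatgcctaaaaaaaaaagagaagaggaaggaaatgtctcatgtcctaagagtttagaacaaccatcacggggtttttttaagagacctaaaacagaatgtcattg
*Nod1*, chr6:54972613-54972862, minus strand: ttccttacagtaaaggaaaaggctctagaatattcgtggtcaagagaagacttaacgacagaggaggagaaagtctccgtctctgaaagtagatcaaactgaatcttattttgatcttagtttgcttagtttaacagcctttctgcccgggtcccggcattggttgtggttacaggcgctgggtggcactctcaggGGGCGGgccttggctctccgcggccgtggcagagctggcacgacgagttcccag

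The *Tlr2* promoter held 1 stretch of overlapping NF-kB matches from base -173 to base -163 before the start, and 2 SP1 matches. *Tlr5* held 2 SP1 matches, *Nod1* held 1, *Tlr1* held a PU.1 match from base -23 to base -16, and *Tlr13* held none of these letters. *Tlr1* and *Nod1* each have another RefSeq start, whose promoters (chr5:64932700-64932949 and chr6:54971662-54971911) held no match to any of the 8 motifs searched. Of 42 promoters for 32 of the tested members, 14.3% held the NF-kB motif against 3.9% of all 32851 promoters of that length, and 11.9% held the PU.1 motif against 2.44%. Some genes count more than once among the 42, and both motifs were found for 5 of the 32 genes each, since 2 neighbouring starts of *Casp4* share an NF-kB match. C/EBP (TTGCNNAA) was found in 19.0% against 9.56%, AP-1 (TGANTCA) in 2.38% against 6.75%, and SP1 in 28.6% against 32.7%. The interferon motif ISRE was found in 4.76% against 2.98%, the TATA box (TATAAA) in 9.52% against 12.4%, and CRE (TGACGTCA) in 0 of the 42 against 1.55%. These matches describe the letters of the promoters and not binding.

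Of the 56 genes, 41 passed the low-count filter, 11 rose and 3 fell in the TranspExer group at an adjusted p-value of 0.05 (edgeR quasi-likelihood test), and 27 were not called. The higher members were *Tlr1*, *Tlr7*, *Tlr12*, *Tlr13*, *Lbp*, *Irak1*, *Irak2*, *Irak4*, *Nod1*, *Naip2* and *Nlrp12*, and the lower ones were *Tlr2*, *Tlr5* and *Nlrp1b*. Among all tested genes 32.2% were called, and among the tested members 34.1%, so the share of members called lay near the background and is not a result about these genes. By direction, 26.8% of the tested members were higher against 16.6% of all tested genes, and 7.32% were lower against 15.5%. No member passed the study's additional threshold of a 2-fold change with edgeR or DESeq2, nor did any at an unadjusted p of 0.05, and 3.5% of all tested genes passed it upward and 5.28% downward. The samples of both groups did not overlap for 20 of 41 members (48.8%), against 52.4% of all tested genes. The median log2 fold change of the tested members was 0.10 (range -0.88 to 0.85), and that of all tested genes was -0.02. Without TranspCtrl 1, 15 members were higher and 4 lower, while 3417 of 15494 tested genes were higher and 3041 lower.

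**Figure D1:**
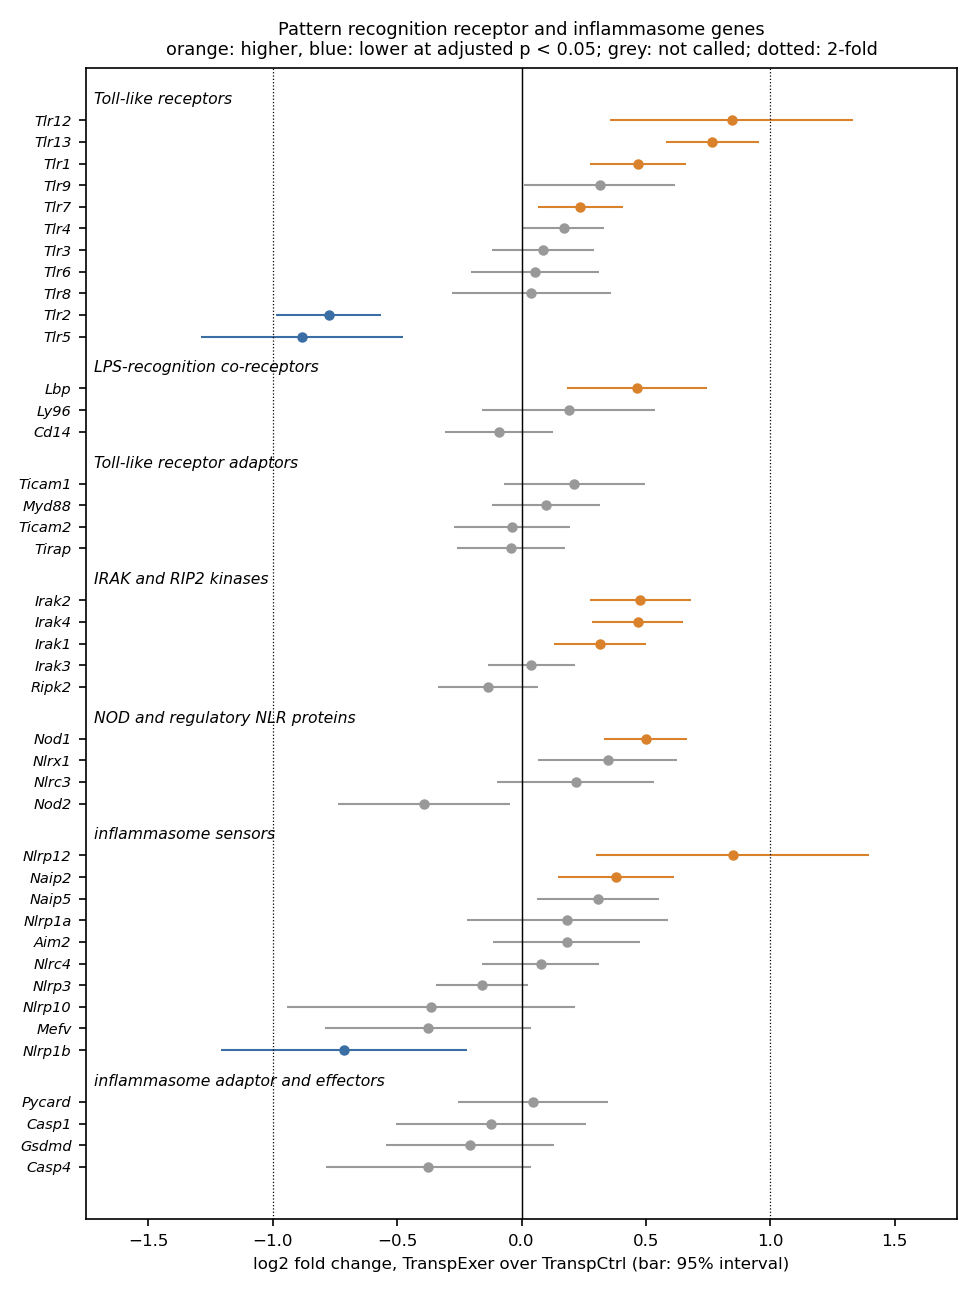
Log2 fold change of the 41 tested members, TranspExer over TranspCtrl, grouped by role, with 95% intervals as bars and the 2-fold limits dotted. The 11 orange genes were higher and the 3 blue genes lower at an adjusted p of 0.05, and every point estimate lies between -0.88 and 0.85, inside the 2-fold limits.

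The other 15 members did not pass the filter. Of these, 12 had a count of 0 in all 6 samples, namely *Nlrp2*, *Nlrp14*, *Nlrp4a* to *Nlrp4g* and *Nlrp9a* to *Nlrp9c*, most of which are known from oocytes and early embryos. *Nlrp5*, also an oocyte gene, had 2, 2 and 0 counts in TranspCtrl 1 to 3 and 0, 1 and 0 in TranspExer 1 to 3. *Nlrp6*, an inflammasome sensor known from the gut epithelium, had 1, 0 and 0 counts against 4, 5 and 2. *Tlr11*, a receptor for profilin and flagellin, had 7, 6 and 12 counts against 9, 9 and 4. Tested without the filter, *Nlrp6*, *Nlrp5* and *Tlr11* were not called (edgeR adjusted p = 0.0984, 0.559 and 0.976), although the *Nlrp6* counts did not overlap between groups.

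The cell makeup of the cultures bears on every level below, since in bulk RNA fewer cells of a type and less RNA per cell cannot be told apart. All 11 stromal MSC markers were detected, with a summed level of 12100 to 19800 CPM in the TranspCtrl group and 13000 to 14200 CPM in the TranspExer group. The collagen genes *Col1a1* and *Col1a2* made up most of that sum, at 4560 to 9950 and 5130 to 7350 CPM against 6790 to 7710 and 4070 to 4380 CPM. Gene by gene, 3 of the stromal markers were higher and 7 lower (median log2 fold change -0.47). Macrophage and monocyte markers were also abundant. Their sum ran from 9810 to 14900 CPM in the TranspCtrl group and from 8140 to 8820 CPM in the TranspExer group, with 4 of 13 higher and 3 lower. *Lyz2*, lysozyme of myeloid cells, made up much of that sum and fell from 9100, 4900 and 5240 CPM to 3240, 2900 and 2600 CPM. The macrophage growth factor receptor *Csf1r*, at 857, 919 and 869 CPM against 883, 936 and 966 CPM, and the surface protein *Adgre1*, at 391, 344 and 340 CPM against 386, 405 and 410 CPM, were not called (edgeR adjusted p = 0.511 and 0.189).

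Other marker lists also differed between the groups, and in several of them a few abundant genes set the sum. Neutrophil markers summed to 3250 to 4330 CPM in the TranspCtrl group and 5540 to 5760 CPM in the TranspExer group (3 of 11 higher, 2 lower, median log2 fold change 0.07). The granule genes *Mpo*, *Elane* and *Ngp* were the higher ones (2.47, 2.16 and 0.53), whereas *Ly6g* and *Cxcr2*, markers of mature neutrophils, were lower (-0.54 and -0.56). Dendritic cell markers summed to 78.2 to 90.8 CPM and 127 to 136 CPM (2 of 6 tested higher, 1 lower, median 0.17), and *Itgax*, which macrophages also carry, made up most of that sum at 65.7 to 78.8 CPM against 115 to 123 CPM. *Clec9a* was also higher (1.18), and *Ccr9* was lower (-0.87). T and NK cell markers summed to 58.4 to 60.3 CPM against 77.5 to 83.6 CPM through *Cd4* and *Nkg7*, the 2 of 8 that were higher (0.35 and 1.36), while *Cd3d* was lower (-1.83) and the median was -0.14. B cell and plasma cell markers fell from 3450 to 5960 CPM to 582 to 631 CPM (8 of 9 lower), with *Ighm* and *Jchain* making up most of the sum. Osteoclast markers fell from 799 to 820 CPM to 379 to 406 CPM (6 of 7 lower, 1 higher). All 7 endothelial markers were higher, at 179 to 215 CPM against 554 to 598 CPM. No marker was at 0 in every sample. The part of these shifts in the receptor levels was not tested.

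Among the 11 tested TLRs, 4 rose and 2 fell in the TranspExer group (36.4% and 18.2%, against 16.6% and 15.5% of all tested genes). *Tlr13* (ENSMUSG00000033777, chrX:106143204-106160493, GRCm38) encodes an endosomal receptor of bacterial 23S ribosomal RNA. Its level was 165, 160 and 157 CPM in TranspCtrl 1 to 3 and 261, 265 and 294 CPM in TranspExer 1 to 3. No sample of one group reached the other, and the log2 fold change was 0.77 ± 0.08 (SE, edgeR adjusted p = 0.000443), a 1.7-fold rise. *Tlr2* (ENSMUSG00000027995, chr3:83836272-83841767) encodes the surface receptor of bacterial lipopeptides, which pairs with TLR1 or TLR6. Its level was 76.8, 65.7 and 64.2 CPM in the TranspCtrl samples and 38.6, 41.8 and 40.4 CPM in the TranspExer samples. Every TranspExer sample lay below every TranspCtrl sample, with a log2 fold change of -0.78 ± 0.09 (edgeR adjusted p = 0.000744), which is 1.71-fold lower.

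*Tlr1* (ENSMUSG00000044827, chr5:64924679-64933563), whose product joins TLR2 in the recognition of triacylated lipopeptides, went the other way from its partner. It stood at 58.9, 50.5 and 51.5 CPM in the TranspCtrl group and at 72.9, 72.9 and 76.6 CPM in the TranspExer group, with no overlap and a log2 fold change of 0.47 ± 0.08 (edgeR adjusted p = 0.00501). *Tlr6*, which joins TLR2 in the recognition of diacylated lipopeptides and lies 18467 bases from *Tlr1*, stood at 18.8, 15.9 and 17.4 CPM against 16.4, 17.7 and 19.9 CPM. The groups overlapped, and its log2 fold change was 0.05 (95% interval -0.21 to 0.31, edgeR adjusted p = 0.735), or 0.11 without TranspCtrl 1. *Tlr1* and *Tlr6* are near-identical over part of their length and their counts were not whole numbers in any of the 6 samples, so reads may have been split between them and their single values are uncertain. *Tlr5* (ENSMUSG00000079164, chr1:182954788-182976044), the receptor of flagellin, was low throughout. Its level was 6.84, 5.24 and 5.11 CPM, from 140, 102 and 110 counts, against 2.82, 3.37 and 3.13 CPM, from 54, 58 and 63 counts. It fell by 0.88 on the log2 scale (SE 0.18, edgeR adjusted p = 0.00783) with no overlap between the groups.

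*Tlr7* and *Tlr12* were also called. *Tlr7* (ENSMUSG00000044583, chrX:167304929-167330558), an endosomal receptor of single-stranded RNA, stood at 103, 108 and 101 CPM against 116, 126 and 126 CPM, a log2 fold change of 0.24 ± 0.07 (edgeR adjusted p = 0.0428) that was lost in 10 of 12 alternative analyses. *Tlr12* (ENSMUSG00000062545, chr4:128615443-128618619), a receptor of profilin, stood at 2.73, 2.57 and 2.28 CPM against 3.45, 5.52 and 4.67 CPM. Its groups did not overlap, and the log2 fold change was 0.84 ± 0.21 (edgeR adjusted p = 0.0196), from 49 to 56 counts per TranspCtrl sample and 66 to 95 per TranspExer sample. Among the fits that left out 1 sample, the call was lost without TranspCtrl 3, TranspExer 2 or TranspExer 3.

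The remaining 5 tested TLRs were not called. *Tlr4*, the receptor of lipopolysaccharide (LPS), stood at 57.5, 62.4 and 61.3 CPM against 67.3, 69.5 and 66.9 CPM. These samples did not overlap, but its log2 fold change of 0.17 (95% interval 0.01 to 0.33) did not pass the test (edgeR adjusted p = 0.104). *Tlr9*, the receptor of unmethylated CpG DNA, stood at 29.5, 39.7 and 38.6 CPM against 39.4, 46.4 and 48.1 CPM (edgeR adjusted p = 0.103). *Tlr3*, the receptor of double-stranded RNA, and *Tlr8*, the neighbour of *Tlr7* on the X chromosome, overlapped between groups at 18.2 to 21.2 CPM and 51.9 to 69.7 CPM (edgeR adjusted p = 0.484 and 0.846). Without TranspCtrl 1 the log2 fold change of *Tlr9* went from 0.31 to 0.19 and that of *Tlr8* from 0.04 to 0.17, with neither called.

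**Figure D2:**
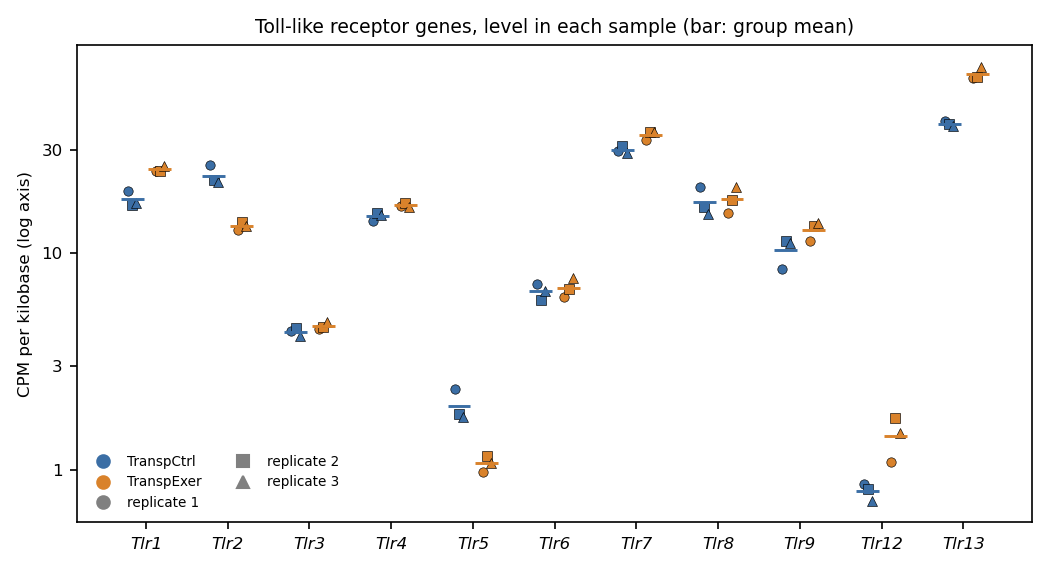
Level of the 11 tested TLR genes in each sample, in CPM per kilobase on a log axis, with bars at the group means. *Tlr13* and *Tlr7* were highest in both groups, and *Tlr2* moved from between *Tlr7* and *Tlr1* in the TranspCtrl samples to between *Tlr4* and *Tlr9* in the TranspExer means.

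Levels of different genes were compared per kilobase of the length that the file gives for each gene. For 53 of the 56 members this equals the length of an annotated transcript, but not for *Tlr5*, *Tlr6* and *Casp1*, so the places of *Tlr5* and *Tlr6* in the order are less certain. In the TranspCtrl group the order of the means was *Tlr13* (39.6 ± 0.976 CPM per kilobase, SD, n = 3), *Tlr7* (30 ± 0.963), *Tlr2* (22.9 ± 2.29), *Tlr1* (17.7), *Tlr8* (17.3), *Tlr4* (14.8), *Tlr9* (10.3), *Tlr6* (6.66), *Tlr3* (4.34), *Tlr5* (1.97) and *Tlr12* (0.795). In the TranspExer group *Tlr13* (67.3 ± 4.4 CPM per kilobase) and *Tlr7* (35.3 ± 1.63) again led, and *Tlr2* (13.4 ± 0.538) came after *Tlr1* (24.5), *Tlr8* (17.7) and *Tlr4* (16.7) and next to *Tlr9* (12.8). *Tlr12* (1.43) came before *Tlr5* (1.07). Neighbours such as *Tlr1* and *Tlr8* in the TranspCtrl group, or *Tlr2* and *Tlr9* in the TranspExer group, lay within the spread of their samples.

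Ratios between genes of the same sample do not depend on the scaling of the library. Several were chosen after the values had been seen and are given as a description, and 3 samples against 3 could not give a two-sided permutation p-value under 0.1. Per base, *Tlr2* exceeded *Tlr1* in every TranspCtrl sample, at ratios of 1.31, 1.31 and 1.25, and was below it in every TranspExer sample, at 0.531, 0.575 and 0.529. The ratio of *Tlr2* to *Tlr6* was 3.54, 3.58 and 3.19 against 2.03, 2.04 and 1.76. The ratio of *Tlr2* to *Tlr4* was 1.81, 1.42 and 1.42 against 0.775, 0.813 and 0.816. The lipopeptide receptor thus went from above the LPS receptor to below it. The ratio of *Tlr13* to *Tlr2* was 1.59, 1.81 and 1.81 against 5.02, 4.71 and 5.4, the widest of the separations among the TLR pairs computed. The ratio of *Tlr7* to *Tlr9* overlapped between groups, at 2.62 to 3.52.

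The receptors were also set against macrophage genes within each sample. The ratio of *Tlr2* to *Csf1r* per base was 0.115, 0.0918 and 0.0948 in the TranspCtrl samples and 0.0561, 0.0573 and 0.0537 in the TranspExer samples. That of *Tlr13* to *Csf1r* was 0.183, 0.166 and 0.172 against 0.282, 0.27 and 0.29. Neither overlapped between the groups. The ratio of *Tlr2* to *Adgre1* was 0.211, 0.205 and 0.203 against 0.107, 0.111 and 0.106, and that of *Tlr5* to *Csf1r* was 0.0106, 0.00758 and 0.00783 against 0.00426, 0.00479 and 0.00431. Over all 13 macrophage and monocyte markers, the ratio of *Tlr2* to the marker was lower in the TranspExer group without overlap for 12 and overlapped for *Lyz2*. That of *Tlr5* was lower for 11 and overlapped for *Lyz2* and *Ccr2*. That of *Tlr13* was higher for 10 and overlapped for *Cd68*, *Mertk* and *Ly6c2*, and that of *Tlr1* was higher for 9, lower for *Cd68* and *Mertk*, and overlapped for *Fcgr1* and *Ly6c2*. *Tlr2*, *Tlr5*, *Tlr13* and *Tlr1* had each been called with groups that did not overlap. Separation from markers that moved little follows from that, and these counts are a description. The share among other genes was not computed, and 52.4% of all tested genes did not overlap between groups by themselves. *Csf1r* and *Adgre1* were themselves not called. Other macrophage genes moved in both directions, with log2 fold changes of 0.78 for *Cd68*, -0.68 for *Ccr2* and -1.14 for *Lyz2* (edgeR adjusted p = 0.000377, 0.00135 and 0.00873).

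**Figure D3:**
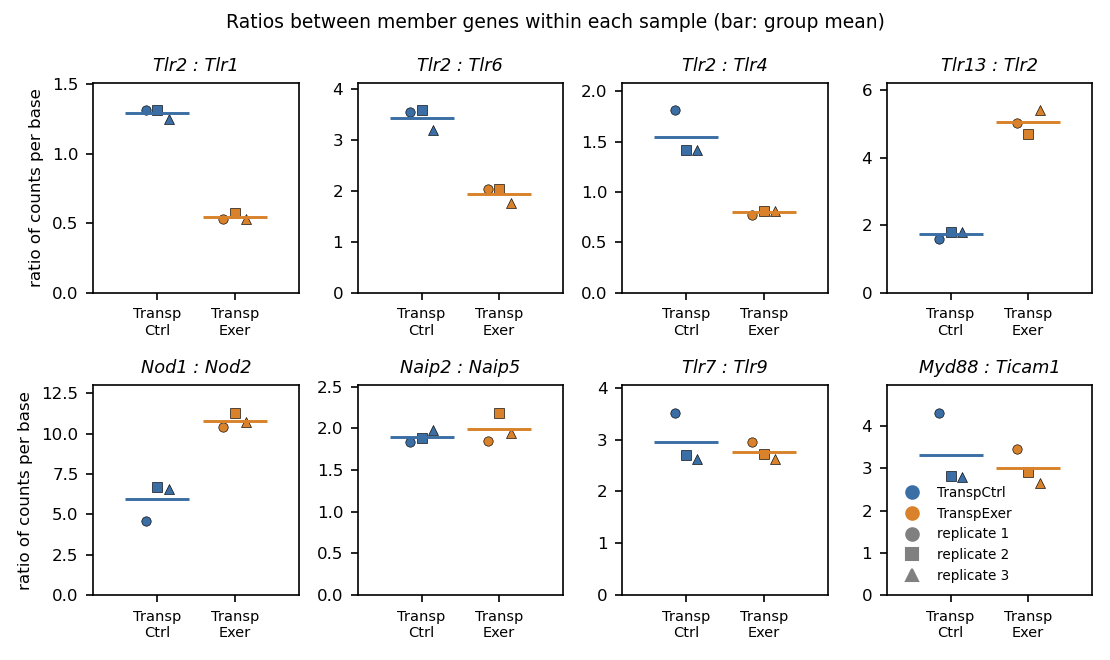
Ratios of counts per base between pairs of member genes within each sample, on axes from 0, with bars at the group means. The ratios of *Tlr2* to *Tlr1*, *Tlr6* and *Tlr4*, of *Tlr13* to *Tlr2* and of *Nod1* to *Nod2* did not overlap between the groups, whereas those of *Naip2* to *Naip5*, *Tlr7* to *Tlr9* and *Myd88* to *Ticam1* did.

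Of the 3 co-receptors of LPS, 1 was higher (33.3%, against 16.6% of all tested genes) and 0 lower. In either direction the share called, 33.3%, lay near the 32.2% of all tested genes and is not a result about the list. *Lbp* (ENSMUSG00000016024, chr2:158306493-158332852), whose secreted product extracts LPS and passes it to CD14, stood at 13.2, 12.2 and 16.2 CPM against 19.0, 18.9 and 19.4 CPM, with no overlap and a log2 fold change of 0.46 ± 0.12 (edgeR adjusted p = 0.0227). This call was lost without TranspCtrl 2 or any 1 of the TranspExer samples. *Cd14*, which hands LPS to TLR4, stood at 67.2, 60.8 and 54.7 CPM against 58.3, 59.6 and 53.7 CPM, with overlap and a log2 fold change of -0.09 (95% interval -0.31 to 0.13, edgeR adjusted p = 0.489) that was -0.01 without TranspCtrl 1. *Ly96*, which encodes the LPS-binding protein MD-2, overlapped at 4.83 to 6.8 CPM (edgeR adjusted p = 0.365).

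None of the 4 adaptor genes was called by edgeR or DESeq2, against 32.2% of all tested genes by edgeR, and 0 had an unadjusted p under 0.05. A list of 4 is too short for this count to be a result about the adaptors. *Myd88*, the adaptor of all TLRs here except TLR3, stood at 67.2, 56.2 and 56.8 CPM against 68.5, 62.0 and 62.4 CPM, and its log2 fold change was 0.10 (95% interval -0.12 to 0.31, edgeR adjusted p = 0.449). Without TranspCtrl 1 it was 0.19 (edgeR adjusted p = 0.0315). *Ticam1*, which encodes TRIF, had a log2 fold change of 0.21 (edgeR adjusted p = 0.218), and the sorting adaptors *Tirap* and *Ticam2* had -0.04 each (edgeR adjusted p = 0.744 and 0.785). Without TranspCtrl 1 these values were 0.10, -0.07 and -0.09. *Ticam2* shares 838 exonic bases on the same strand with *Tmed7*, whose mean count was 3655.4 against 415.2 for *Ticam2*, so its level is uncertain. *Tmed7* had a log2 fold change of 0.31 and was not called (edgeR adjusted p = 0.134), and *Myd88* shares 290 exonic bases on the opposite strand with *Acaa1a* (log2 fold change -0.08, edgeR adjusted p = 0.501). The 4 genes summed to 135 to 138 CPM in the TranspCtrl samples and 142 to 146 CPM in the TranspExer samples.

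Of the 5 kinases downstream, 3 were higher (60.0%, against 16.6% of all tested genes), all of them IRAKs. *Irak4* (ENSMUSG00000059883, chr15:94543643-94581815), the kinase that binds MyD88 first, stood at 32.1, 37.1 and 35.1 CPM against 47.4, 48.6 and 48.1 CPM, with a log2 fold change of 0.47 ± 0.08 (edgeR adjusted p = 0.00404). *Irak2* (ENSMUSG00000060477, chr6:113638467-113695026), which sustains the response, stood at 37.4, 42.1 and 45 CPM against 56.3, 56.8 and 60.2 CPM, with a log2 fold change of 0.48 ± 0.09 (edgeR adjusted p = 0.00572). *Irak1* (ENSMUSG00000031392, chrX:74013914-74023918), the substrate of IRAK4, stood at 76.2, 86.2 and 83.4 CPM against 96.5, 103 and 107 CPM, with a log2 fold change of 0.31 ± 0.08 (edgeR adjusted p = 0.0213). In none of the 3 did the groups overlap, and *Irak1* alone lost its call when a sample was left out (TranspCtrl 3, TranspExer 2 or TranspExer 3). *Irak3*, the IRAK that restrains the pathway and is largely restricted to monocytes and macrophages, stood at 28.9, 28.4 and 27.8 CPM against 29.9, 29.1 and 28.4 CPM. Its groups overlapped, and the log2 fold change was 0.04 (95% interval -0.14 to 0.21, edgeR adjusted p = 0.713).

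The ratio of *Irak4* to *Irak3* per base was accordingly 1.22, 1.43 and 1.38 against 1.73, 1.83 and 1.85, and that of *Irak1* to *Irak3* was 2.82, 3.25 and 3.22 against 3.45, 3.78 and 4.02, without overlap between the groups. *Ripk2*, the kinase of NOD1 and NOD2, had a log2 fold change of -0.14 (edgeR adjusted p = 0.261), and without TranspCtrl 1 it was -0.19 (edgeR adjusted p = 0.0474). *Irak4* shares 395 exonic bases with *Twf1* on the opposite strand, and whether counting used the strand is not given in the sources used here. *Twf1* itself had a log2 fold change of 0.16 and was not called (edgeR adjusted p = 0.207). Counts of *Irak2* and *Irak4* were not whole in any sample, so part of their reads may have been shared with other features.

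**Figure D4:**
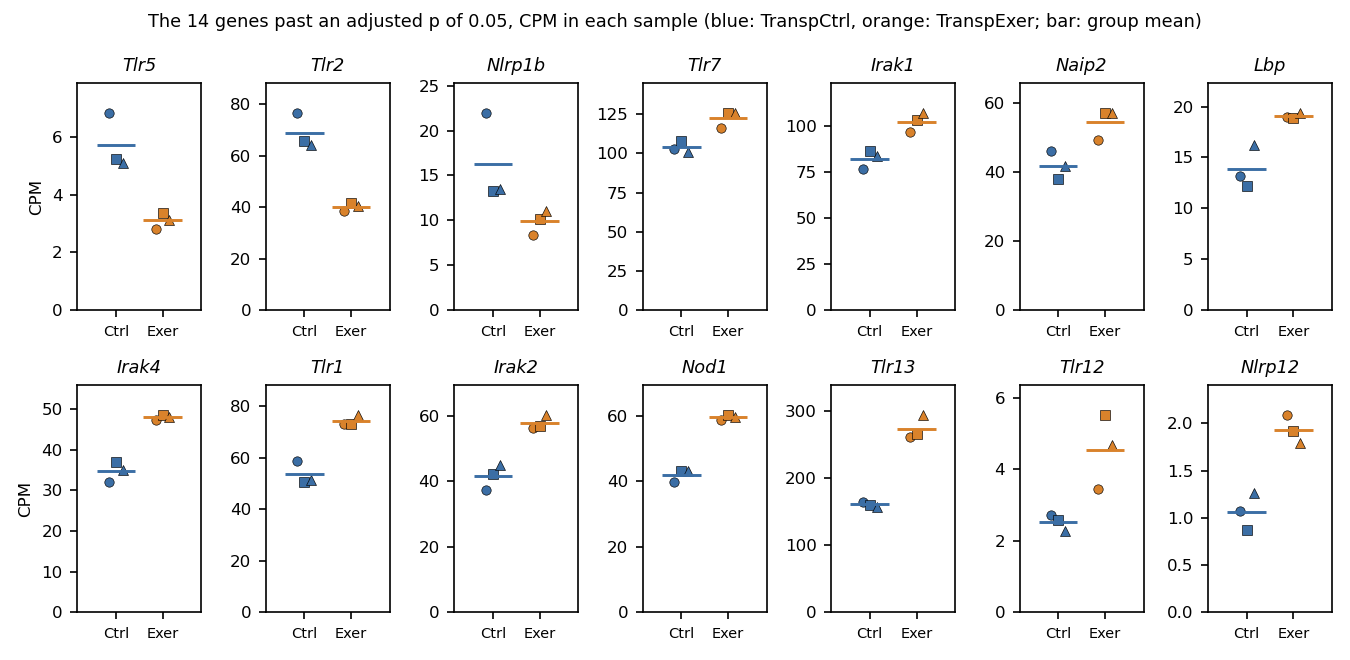
CPM of the 14 called members in each sample (circles, squares and triangles for replicates 1, 2 and 3), on axes from 0, with bars at the group means. The groups do not overlap in any panel, and TranspCtrl 1 stands above the other TranspCtrl samples most clearly in *Nlrp1b*, at 22.0 CPM.

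Among the NOD and regulatory NLR genes, 1 of 4 was higher (25.0%, against 16.6% of all tested genes) and 0 lower. In either direction the share called, 25.0%, lay below the 32.2% of all tested genes, and in so short a list it is not a result. *Nod1* (ENSMUSG00000038058, chr6:54923949-54972612), whose product senses a peptidoglycan fragment found chiefly in Gram-negative bacteria, stood at 39.6, 43.2 and 43.2 CPM against 58.6, 60.2 and 59.5 CPM. The samples did not overlap, and the log2 fold change was 0.50 ± 0.07 (edgeR adjusted p = 0.00197). *Nod2* (ENSMUSG00000055994, chr8:88647315-88688474), whose product senses muramyl dipeptide and is known mainly from myeloid cells, stood at 10.1, 7.5 and 7.63 CPM against 6.54, 6.16 and 6.46 CPM. These did not overlap either, but its log2 fold change of -0.39 (95% interval -0.74 to -0.05) was not called (edgeR adjusted p = 0.0793), and without TranspCtrl 1 it was -0.24 (edgeR adjusted p = 0.143). The ratio of *Nod1* to *Nod2* per base was 4.58, 6.7 and 6.58 in the TranspCtrl samples and 10.4, 11.3 and 10.7 in the TranspExer samples. *Nlrx1*, a mitochondrial NLR, stood at 15.2, 20.3 and 17.7 CPM against 22.3, 21.5 and 23.8 CPM with a log2 fold change of 0.35 (edgeR adjusted p = 0.0605). It was called without TranspCtrl 1 (0.25, edgeR adjusted p = 0.0474) and without TranspCtrl 2 (0.46, edgeR adjusted p = 0.0286). *Nlrc3*, a negative regulator, overlapped at 5.62 to 7.48 CPM (edgeR adjusted p = 0.252).

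Of 24 inflammasome sensors, 10 were tested, 2 were higher and 1 lower. The share called, 30%, lay near the background of 32.2% and is not a result about the sensors. *Naip2* (ENSMUSG00000078945, chr13:100144063-100202092), whose product binds the rod protein of bacterial secretion systems, stood at 45.9, 37.8 and 41.7 CPM against 49.2, 57.1 and 57.0 CPM, a log2 fold change of 0.38 ± 0.10 (edgeR adjusted p = 0.0236) that was lost in 6 alternatives, among them both other scalings. *Naip5*, a flagellin sensor 9646 bases away, stood at 27.6, 22.2 and 23.3 CPM against 29.4, 28.8 and 32.2 CPM, a log2 fold change of 0.31 (edgeR adjusted p = 0.058) that became 0.41 without TranspCtrl 1 (edgeR adjusted p = 0.00129). The ratio of these paralogs per base overlapped between the groups. It was 1.84 to 1.98 in the TranspCtrl samples and 1.85 to 2.19 in the TranspExer samples, and since their counts were not whole in any sample, their single values are uncertain. *Nlrc4*, with which both NAIPs assemble, overlapped at 13.1 to 15.7 CPM (log2 fold change 0.08, edgeR adjusted p = 0.59).

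*Nlrp12* (ENSMUSG00000078817, chr7:3218784-3249740), known as a brake on NF-kB in myeloid cells, rested on few reads. It had 22, 17 and 27 counts in the TranspCtrl samples and 40, 33 and 36 in the TranspExer samples, with a log2 fold change of 0.85 ± 0.24 (edgeR adjusted p = 0.0291). Among the fits that left out 1 sample, the call was lost without TranspCtrl 2 or any 1 of the TranspExer samples. *Nlrp1b* (ENSMUSG00000070390, chr11:71153102-71230733), the mouse sensor of anthrax lethal factor, stood at 22.0, 13.3 and 13.5 CPM against 8.42, 10.2 and 11.1 CPM. It fell by 0.71 on the log2 scale (SE 0.22, edgeR adjusted p = 0.0375), and without TranspCtrl 1 the log2 fold change was -0.43 (edgeR adjusted p = 0.0129). Without any 1 of the TranspExer samples it was not called. Its neighbour *Nlrp1a*, 8397 bases away, stood at 3.13, 4.42 and 4.0 CPM against 4.19, 4.71 and 4.22 CPM and was not called (edgeR adjusted p = 0.447), and the ratio of *Nlrp1a* to *Nlrp1b* per base was 0.129, 0.301 and 0.269 against 0.451, 0.42 and 0.344.

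The NLRP3 inflammasome itself showed no called gene. Of its adaptor and the effectors, 0 of 4 were called by edgeR or DESeq2, against 32.2% of all tested genes by edgeR. With edgeR 0 of them had an unadjusted p under 0.05. A list of 4 is too short for this count to be a result about these genes. *Nlrp3*, its sensor, stood at 54.6, 54.4 and 53.0 CPM against 45, 47.6 and 52.5 CPM, without overlap, and its log2 fold change of -0.16 (95% interval -0.34 to 0.03) did not pass the test (edgeR adjusted p = 0.165). *Pycard*, which encodes the adaptor ASC, stood at 46.4, 32.7 and 39.2 CPM against 43.1, 41.8 and 37.2 CPM (edgeR adjusted p = 0.805). *Casp1*, the protease that the complex activates, stood at 53.3, 36.4 and 37.2 CPM against 41.5, 42.3 and 32.8 CPM (edgeR adjusted p = 0.59). *Gsdmd*, the pore-forming substrate, stood at 77.2, 53.1 and 52.8 CPM against 53.0, 51.9 and 53.7 CPM, and *Casp4*, the cytosolic LPS sensor that cleaves it, at 23.9, 16.5 and 14.7 CPM against 13.4, 14.7 and 14.4 CPM (edgeR adjusted p = 0.309 and 0.142). In *Casp1*, *Casp4* and *Gsdmd* TranspCtrl 1 was the highest of the 6 samples, and without it their log2 fold changes were 0.07, -0.14 and -0.0018. *Mefv*, which encodes pyrin, was also highest in TranspCtrl 1, at 24.4, 14.9 and 17.5 CPM against 16.1, 14 and 13.7 CPM (edgeR adjusted p = 0.142), and its log2 fold change went from -0.38 to -0.16 without it. Those of *Pycard*, *Nlrc4*, *Nlrp1a* and *Nlrp10* went from 0.05, 0.08, 0.18 and -0.36 to 0.18, 0.15, 0.05 and -0.56, with none called. *Aim2*, the sensor of cytosolic DNA, and *Nlrp10* overlapped between groups at 14.3 to 19.6 CPM and 1.63 to 2.79 CPM (edgeR adjusted p = 0.307 and 0.298), and without TranspCtrl 1 *Aim2* was higher by 0.32 (edgeR adjusted p = 0.0142).

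Summed over each role, the TLR genes ran from 569 to 608 CPM in the TranspCtrl group and from 690 to 770 CPM in the TranspExer group, with *Tlr13* alone at 157 to 165 CPM and 261 to 294 CPM. The IRAK and RIP2 kinases summed to 200 to 222 CPM against 256 to 268 CPM, and the NOD and regulatory NLR genes to 70.5 to 77.2 CPM against 93.9 to 96.7 CPM. The co-receptors of LPS summed to 76.7 to 85.9 CPM against 79.4 to 85.3 CPM. The inflammasome sensors summed to 178 to 216 CPM against 190 to 208 CPM, and the adaptor and effectors to 139 to 201 CPM against 138 to 151 CPM, with overlap in both. The median log2 fold change was 0.17 for the tested TLRs, 0.19 for the co-receptors, 0.03 for the adaptors, 0.31 for the kinases, 0.28 for the NOD group, 0.13 for the tested sensors and -0.17 for the adaptor and effectors, beside -0.02 over all tested genes.

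The genes around these receptors were read from 5 lists with 75 different genes, all of them tested, of which 25 were higher and 9 lower (33.3% and 12.0%, against 16.6% and 15.5% of all tested genes; median log2 fold change 0.11). The list of TLR trafficking and accessory proteins had the most calls for its size, with 7 of 11 higher and 2 lower, or 63.6% and 18.2% (median 0.43). *Unc93b1*, the chaperone that carries endosomal TLRs from the endoplasmic reticulum, stood at 303, 309 and 300 CPM against 412, 412 and 407 CPM, a log2 fold change of 0.43 (edgeR adjusted p = 0.00348). *Slc15a3*, a lysosomal transporter of histidine and bacterial dipeptides, stood at 129, 134 and 132 CPM against 263, 250 and 273 CPM, with a log2 fold change of 0.99 (edgeR adjusted p = 0.000105). *Cd180*, which encodes a TLR-like protein of B cells and macrophages, stood at 73.8, 71.1 and 74.9 CPM against 134, 143 and 142 CPM, with a log2 fold change of 0.93 (edgeR adjusted p = 0.000112). The B cell and plasma cell markers fell, and which cells carried *Cd180* was not tested.

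Also in this list, *Cd36*, a scavenger receptor that assists TLR2 and TLR6 and is carried by macrophages, endothelium and adipocytes alike, rose by 2.04 on the log2 scale, from 353, 369 and 369 CPM to 1460, 1470 and 1560 CPM (edgeR adjusted p = 1.45e-05). *Ctsk*, a protease that acts on TLR9 and is also an osteoclast marker, went from 190, 134 and 133 CPM to 28.4, 26.2 and 25.4 CPM (log2 fold change -2.51, edgeR adjusted p = 4.96e-05), as did most osteoclast markers. *Hsp90b1*, the chaperone gp96 that folds TLRs and is abundant in plasma cells, went from 1770, 1710 and 1710 CPM to 1020, 1000 and 965 CPM (log2 fold change -0.80, edgeR adjusted p = 0.000372). These genes serve several cell types, and the part of cell makeup in their differences was not tested.

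Of the 24 genes that relay the signal to NF-kB and interferon regulatory factors, 6 were higher and 2 lower (median log2 fold change 0.02). The share called, 33.3%, lay near the 32.2% of all tested genes and is not a result about the list. *Irf5*, a transcription factor of TLR signalling in myeloid cells, rose from 68.8, 72.5 and 68.6 CPM to 115, 109 and 112 CPM (log2 fold change 0.68, edgeR adjusted p = 0.000401). *Pik3ap1*, which links TLRs to PI3K, rose from 161, 204 and 191 CPM to 334, 343 and 345 CPM (log2 fold change 0.88, edgeR adjusted p = 0.00068). *Irf7*, the interferon regulator downstream of TLR7 and TLR9, had a log2 fold change of 0.46 (edgeR adjusted p = 0.00502), and *Ikbkg*, the scaffold of the IκB kinase, had -0.40 (edgeR adjusted p = 0.00432). *Traf6*, the ubiquitin ligase that follows the IRAKs, stood at 40.8, 43.5 and 40.3 CPM against 37.5, 42.6 and 40.8 CPM and was not called (edgeR adjusted p = 0.706). Of the NF-kB subunit genes, *Rela* had 0.58 and *Nfkb2* -0.24 (edgeR adjusted p = 0.0401 and 0.0378). Without TranspCtrl 1 these were 0.38 and -0.26, and the calls held in 3 and 1 of the 6 fits that each left out 1 sample. *Nfkb1* had 0.26 and was not called (edgeR adjusted p = 0.0642), but was called without TranspCtrl 1 (0.18, edgeR adjusted p = 0.0208).

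Of 15 negative regulators, 5 were higher and 0 lower (median log2 fold change 0.04), and 2 were lower at an unadjusted edgeR p of 0.05. Here too 33.3% were called, near the background of 32.2%. Without TranspCtrl 1, 6 were higher and 2 lower, the lower ones being *Socs1*, which restrains cytokine signalling (log2 fold change -0.82, edgeR adjusted p = 0.0026, against -0.50 and 0.29 with all samples), and the NF-kB inhibitor gene *Nfkbie* (-0.20, edgeR adjusted p = 0.0314, against -0.10 and 0.498). *Zfp36*, which destabilises cytokine mRNA, rose from 84.5, 96.5 and 98.0 CPM to 139, 137 and 129 CPM (log2 fold change 0.54, edgeR adjusted p = 0.0028). *Tollip*, which binds IRAK1, *Tnip1*, a partner of A20, and the RNase gene *Zc3h12a* had log2 fold changes of 0.37, 0.50 and 0.39 (edgeR adjusted p = 0.00781, 0.0106 and 0.0126), and with 1 sample left out in turn these calls held in 6, 5 and 4 of 6 fits. The NF-kB target genes *Nfkbia* and *Tnfaip3* had log2 fold changes of -0.33 and -0.09 and were not called (edgeR adjusted p = 0.109 and 0.367), and without TranspCtrl 1 they had -0.15 and -0.05.

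Of 16 partners and substrates of inflammasomes, 4 were higher and 3 lower, or 25.0% and 18.8% against 16.6% and 15.5% of all tested genes (median log2 fold change 0.17). *Il1b*, the cytokine that caspase-1 matures, was low and fell by 1.88 on the log2 scale, from 14.4, 5.49 and 6.14 CPM to 3.14, 1.8 and 2.09 CPM (SE 0.41, edgeR adjusted p = 0.0114), with TranspCtrl 1 far above the rest. Without TranspCtrl 1 its log2 fold change was -1.31 (edgeR adjusted p = 0.00036), and its call held in 4 of the 6 fits that each left out 1 sample. *Il18*, its relative, stood at 12.2, 9.6 and 8.32 CPM against 11.1, 10.9 and 12.3 CPM (edgeR adjusted p = 0.364), and without TranspCtrl 1 it had a log2 fold change of 0.36 (edgeR adjusted p = 0.0289). *Gbp2*, an interferon-induced GTPase that acts on bacterial membranes, had a log2 fold change of -0.65 (edgeR adjusted p = 0.0011), and *Gsdme*, a gasdermin cleaved by caspase-3, and *Ninj1*, which ruptures the membrane of dying cells, had 0.73 and 0.33 (edgeR adjusted p = 0.00921 and 0.0118). Of 11 partners of NOD1 and NOD2, 3 were higher and 2 lower, or 27.3% and 18.2% (median -0.01). The ubiquitin ligases *Birc3* and *Birc2*, which act on RIP2, had log2 fold changes of -0.60 and -0.72 (edgeR adjusted p = 0.00287 and 0.00433), and *Rbck1* and *Sharpin*, of the linear ubiquitin ligase, had 0.42 and 0.29 (edgeR adjusted p = 0.0194 and 0.0285), calls that held in 4 and 1 of those 6 fits.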

How the data were processed

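RNA-Seq of BM MSCs was available for 3 TranspCtrl and 3 TranspExer samples. Per the labels and the study's methods, libraries were made with an Illumina mRNA kit (named as stranded in the labels), and the submitters' processing notes name the mm10 build. The aligner, counting tool and strand setting are not given in the sources used here. The authors deposited expected counts per gene, not normalized and partly not whole (10.1% to 12.2% of values per sample), and a length per gene. Counts were rounded and fitted with edgeR 4.0.16 (R 4.3.3; low counts removed by filterByExpr, TMM scaling, quasi-likelihood test on the FMT group alone), with Benjamini-Hochberg adjustment over 15190 genes. Standard errors and 95% intervals are those of the log2 fold change. Coordinates came from GENCODE M21 (GRCm38), in which all 56 members were found, and promoters from RefSeq. The scripts were tested on simulated data.

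The members and the role, pathway and marker lists were chosen with earlier results of these data known. All members are accounted for. Within each pathway list the 4 genes with the smallest adjusted p-value are described, together with genes singled out after their values were seen (*Unc93b1*, *Hsp90b1*, *Traf6*, *Rela*, *Nfkb1*, *Nfkb2*, *Nfkbia*, *Tnfaip3*, *Socs1*, *Nfkbie*, *Il18*). The alternatives were DESeq2 1.42.0, scaling by upper quartile or by library size, a weaker and a stricter low-count filter, a replicate block, a model test of the 2-fold change, and leaving out each sample in turn.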

Additional observations from a re-analysis of the deposited data

How the results depend on the processing

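Of the 14 called members, 7 (*Tlr1*, *Tlr2*, *Tlr5*, *Tlr13*, *Nod1*, *Irak2* and *Irak4*) kept their call in all 12 alternatives to the test at an adjusted p of 0.05, and of the 27 others 21 stayed uncalled. Over all members and alternatives, 450 results were the same, 7 gained and 35 lost a call, and 0 changed direction with a call in either fit. A change of sign between uncalled results counted as the same. It occurred for several uncalled members, such as *Casp1* (log2 fold change -0.22 to 0.07 over the alternatives) and *Pycard* (-0.07 to 0.18). Members higher and lower numbered 11 and 3 with DESeq2, 9 and 3 with upper-quartile normalization and with library size only, and 10 and 3 with no filter and with the stricter filter. These scalings also moved the split over all genes from 2523 higher and 2361 lower to 2052 and 2901 (upper quartile) and 2013 and 2962 (library size), and the NOD1 and NOD2 partners called from 5 to 3. A fold change of 2 tested in the model called 0 members. With a replicate block, 10 members were higher and 2 lower, 2484 and 2218 genes in all, and the inflammasome sensors called went from 3 to 1 (*Nlrp12* and *Nlrp1b*, adjusted p = 0.0589 and 0.0548). Same-numbered samples deviated with correlations of 0.0247, -0.00167 and 0.0416, and not every sample correlated best with its own number, so the numbers were not taken as pairs.

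With each sample left out in turn, 5 to 15 members were higher and 2 to 4 lower, and past 2-fold 0 to 1 were higher (*Tlr12* without TranspExer 1) and 0 lower. Called genes ranged from 4 to 6 TLRs, 0 to 1 co-receptors, 0 to 1 adaptors, 2 to 4 kinases, 1 to 2 NOD genes, 0 to 5 sensors and 0 effectors. In the other lists they ranged from 7 to 10 trafficking, 4 to 11 relay, 3 to 8 negative regulator, 2 to 11 inflammasome partner and 2 to 5 NOD partner genes. The highest counts came without TranspCtrl 1, where these 5 lists had 8, 9, 6, 7 and 3 genes higher and 2, 2, 2, 4 and 2 lower. *Irak1*, *Lbp*, *Naip2*, *Nlrp12*, *Nlrp1b*, *Tlr12* and *Tlr7* each lost the call without at least 1 of the other samples (adjusted p up to 0.171, for *Tlr7* without TranspExer 2), and *Naip2* and *Tlr7* also under other scalings (0.0755 to 0.149). *Nlrx1* gained a call without TranspCtrl 1 or 2 (0.0474 and 0.0286) and *Tlr9* with the block (0.0327). The cause of these changes was not tested. Low counts limit *Tlr5*, *Tlr12* and *Nlrp12*, and of the 15 members below the filter 3 could be tested without it, with 0 called (the lowest adjusted p was 0.0984, for *Nlrp6*).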
